A study of Canis lupus familiaris with 62 samples.

Results

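The tumours described here are 27 canine meningiomas from dogs whose treatment label was none. They were set against each other by the number near the front of the sample name, after a letter that was N in all 27. Names numbered 11 to 14 formed the older group (10 tumours) and names numbered 15 to 18 the newer group (17 tumours), out of 62 tumours in the series. Per the labels' protocols the specimens were archived between 2011 and 2022, and the name numbers of the series run from 11 to 22. The labels do not say that the number is the year, so "older" and "newer" stand for lower and higher name numbers. No measured value entered this grouping.

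Meningiomas are tumours of the membranes that cover the brain and spinal cord, and dogs develop them spontaneously. Tissue fixed in formalin and embedded in paraffin carries RNA that has been chemically modified and broken, and such RNA is known to degrade further in storage. The mitochondrial genome codes for ribosomal RNAs, respiratory chain proteins and very short transfer RNAs, and its transcripts are abundant in most tissues.

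Total RNA of each tumour gave 1 library, taken from surgical biopsies or from tissue collected soon after death, and the labels do not say which source a given tumour had. The older group came from 4 female and 6 male dogs, 2 of them intact, with 1, 1, 5 and 3 tumours at numbers 11, 12, 13 and 14. The newer group came from 10 female and 7 male dogs, 1 of them intact, with 3, 5, 2 and 7 tumours at numbers 15, 16, 17 and 18. The survival label, which carries no unit, read 0 in 7 older and 9 newer dogs. Other tumours of the series served as separate sets that share no library with these 27. One set, called N-named below, held other tumours with names in N, of dogs whose label read RT, an anti-epileptic drug alone, a steroid alone, or a steroid together with an anti-epileptic drug (5 older, 6 newer). The other held S-named tumours of dogs labelled Sx or SxRT (5 older, 8 newer), so only the first set shares the letter of the 27 untreated tumours. The N-named set held 2 steroid, 2 anti-epileptic and 1 RT tumours in the older group. Its newer group held 3, 1 and 2, with 5 tumours at number 18. The S-named set held 3 Sx and 2 SxRT older and 5 Sx and 3 SxRT newer tumours. Treatment was not a covariate in these sets. Tumours of both steroid labels are numbered together as steroid replicates. The files pair no gene identifier with a name, so the defining markers of meningeal, brain, blood or immune cells could not be looked up and the cell makeup of the tumours was not measured. In bulk RNA, fewer cells of a type and less RNA per cell cannot be told apart.

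Older libraries were smaller and counted fewer genes, and a larger share of their low counts were even numbers. Because each read of a pair was counted on its own, a gene whose read pairs were counted whole receives an even count. The share of even values among counts from 1 to 20 was 91.4%, 93.5% and 95.3% in the older tumours (lowest, median and highest), against 84.8%, 90.1% and 93.4% in the newer tumours. All 10 older libraries lay above the newer median, and the ranges overlapped between 91.4% and 93.4%. The means were 93.4% ± 1.39 in older and 89.9% ± 2.48 in newer tumours (SD, n = 10 and 17), a difference of 3.47 percentage points (2-sided permutation test, p = 0.00044, adjusted p = 0.00528 over 12 library measures).

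Total counts were 1967061, 3286280 and 4213405 in the older libraries (lowest, median and highest), against 2664110, 4230961 and 8354260 in the newer libraries. All 10 older libraries lay below the newer median, and the mean of the older group was 0.736 times that of the newer group (permutation test, adjusted p = 0.0324). Genes with at least 1 count numbered 13085, 16114 and 16906 in older tumours, against 15243, 17080 and 18767 in newer tumours. The means were 15722 ± 1211 and 16960 ± 940 genes (SD, n = 10 and 17; permutation test, adjusted p = 0.0324), again with all 10 older libraries below the newer median. When every library was scaled down to the depth of the smallest, 1967061 counts, the older mean was 15516 ± 1101 genes and the newer mean 16433 ± 759 (permutation test, adjusted p = 0.0336). The lowest value in both counts of genes, 13085, belonged to older replicate 4, which was also the smallest library. Total counts and both counts of genes no longer passed without older replicate 4, 8 or 10 (adjusted p between 0.0524 and 0.114), nor total counts and genes at equal depth without older replicate 2 (0.0567 for both), nor genes at equal depth without older replicate 5 (0.0663) or newer replicates 3, 8, 14 or 16 (0.0522 to 0.0528), whereas the even share passed whichever 1 library was left out.

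Depth, the even share and the genes detected moved together across these libraries. With log2 total counts as a covariate the even share was 1.66 percentage points higher in older tumours and no longer passed (permutation of residuals, p = 0.0271, adjusted p = 0.298 over 11 measures), and the number of genes detected at equal depth differed by -422.0 (adjusted p = 0.578). With the even share as the covariate instead, the number of genes detected at equal depth differed by -214.4 (adjusted p = 0.844), and total counts by 132996 with the opposite sign (adjusted p = 0.844). For these measures the period, the depth and the counting of pairs cannot be told apart in these 27 libraries.

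**Figure D1:**
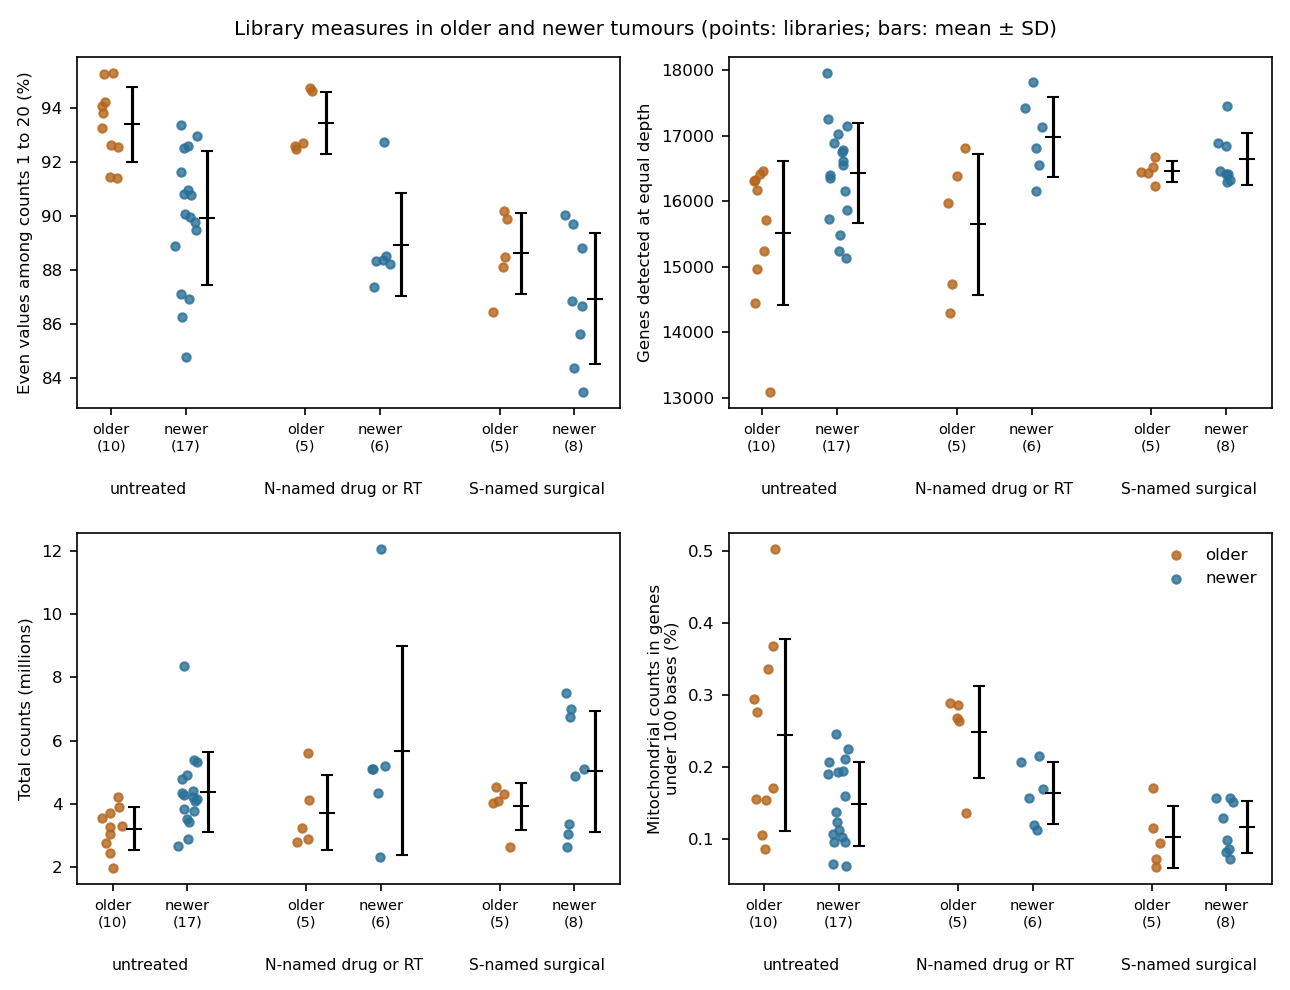
Values of 4 library measures, 1 point per library, for older and newer tumours in the untreated, N-named drug or RT, and S-named surgical sets (number of libraries in brackets; bars are the mean ± SD). In the untreated set all 10 older libraries lie above the newer median of the even share and below the newer medians of total counts and of genes detected at equal depth.

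The N-named tumours gave the same direction for the even share, total counts and both counts of genes. Their even share was 93.4% ± 1.15 in older and 88.9% ± 1.91 in newer tumours (SD, n = 5 and 6; exact permutation test, adjusted p = 0.0433), and 5 of 5 older libraries lay above the newer median. Genes with at least 1 count averaged 15883 ± 1054 in older and 17785 ± 670 in newer N-named tumours (SD, n = 5 and 6; exact permutation test, adjusted p = 0.039). Total counts and genes at equal depth did not pass in N-named tumours (exact permutation test, adjusted p = 0.37 and 0.0779). In S-named tumours the even share was 88.6% ± 1.51 in older and 86.9% ± 2.42 in newer ones (SD, n = 5 and 8; exact permutation test, adjusted p = 0.712), and no measure passed. One further measure passed in N-named tumours, the share of nuclear counts on genes over 5 kb, at 24.3% ± 2.29 in older and 27.9% ± 3.27 in newer ones (SD, n = 5 and 6; exact permutation test, adjusted p = 0.026). Newer steroid replicate 5 stood at 34.5%, and without it the difference of -3.58 percentage points became -2.25, smaller by over 1.5 times. An exact permutation test taking 2 times the smaller tail gave an unadjusted p of 0.00433 with it and 0.00794 without it. Each is the smallest that this form of the test can give for its number of libraries. The adjusted p of 0.026 rests on the other form, which counts both tails (exact permutation test, unadjusted p = 0.00216). The test of the difference between the untreated and the other sets gave no adjusted p under 0.05 for any of the 12 measures in either set.

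Across the 27 untreated tumours the even share fell with the name number (Pearson r = -0.568, permutation p = 0.00194, adjusted p = 0.0233; Spearman rho = -0.629, permutation p = 0.00063, adjusted p = 0.00756; 12 measures). Without the 2 tumours farthest from the median number r was -0.526. Within the older group r was -0.0257 and within the newer group -0.0766, so the relation was one between the groups and was not seen inside either. Total counts gave r = 0.33 and rho = 0.5 (permutation p = 0.0892 and 0.00841, adjusted p = 0.214 and 0.0505) and genes detected r = 0.432 and rho = 0.456 (permutation p = 0.023 and 0.0176, adjusted p = 0.135 and 0.0704), neither passing.

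Relative to newer libraries, older ones detected the smallest share among short and few-exon genes. Of 6228 annotated genes with a single merged exon, 1124 ± 226 were counted in an older and 1378 ± 170 in a newer tumour (SD, n = 10 and 17), which is 81.6% of the newer number. Of 4314 genes with 16 or more exons, 3961 ± 93.0 were counted in an older and 4035 ± 78.4 in a newer tumour, or 98.2%. Genes with merged exons under 1 kb were detected at 86.6% of the newer number and genes of 8 kb or more at 98.9%. By genomic span the range ran from 85% for genes under 5 kb to 98.6% for genes of 500 kb and over. These are descriptions with no test of one class against another, and each class has its own share of weakly expressed genes. Depth was lower in older libraries, and its part in these percentages was not tested.

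**Figure D2:**
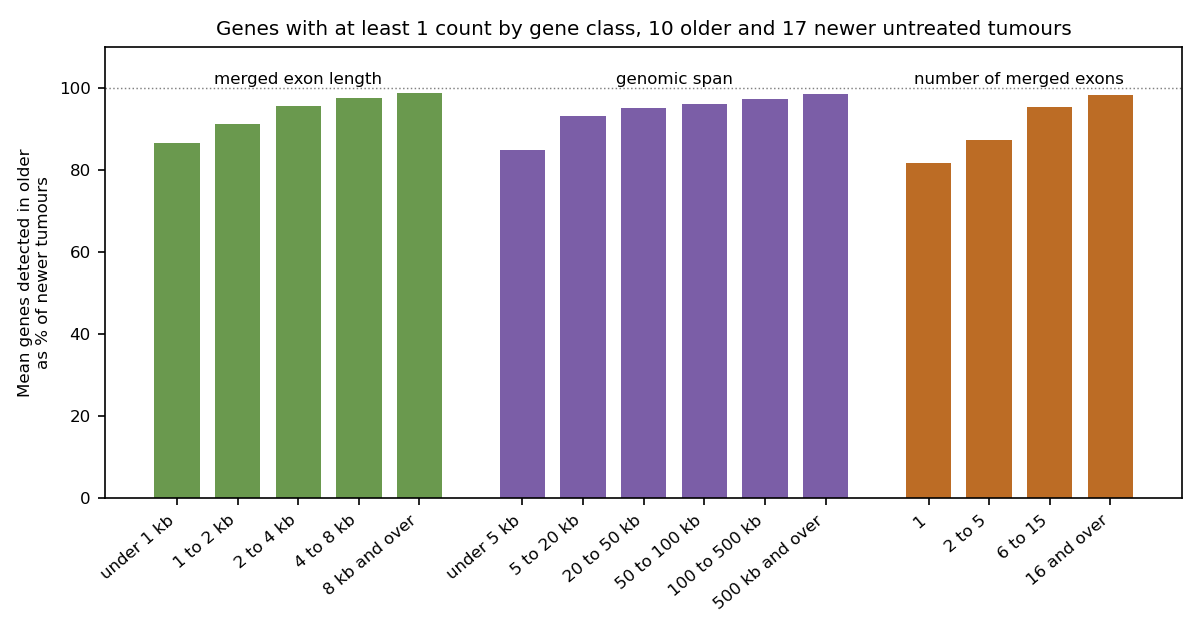
Mean number of genes with at least 1 count in the 10 older tumours as a percentage of the mean in the 17 newer tumours (vertical axis, %), for nuclear genes grouped by merged exon length, genomic span and number of merged exons. The bars rise from 81.6% for single-exon genes to 98.2% for genes with 16 or more exons.

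Across the annotation 10050 genes were counted in every one of the 27 tumours. A further 1762 genes were counted in every newer tumour but missed in at least 1 older one, and 422 were counted in every older tumour but missed in at least 1 newer one. No older tumour counted 2710 genes that some newer tumour did, and no newer tumour counted 654 genes that some older tumour did, with 10 and 17 libraries to be seen in. Only 9 of the 2710 were counted in at least 9 newer tumours, and none of the 654 in at least 5 older ones, so nearly all of these genes were seen in a minority of the libraries of the other period.

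The even share was higher in older tumours in each class of nuclear genes, by 2.63 percentage points for merged exons of 4 to 8 kb up to 4.3 points for exons under 1 kb. The share of nuclear counts that fell on genes under 1 kb was 7.06% ± 0.682 in older and 6.90% ± 0.413 in newer tumours (permutation test, adjusted p = 0.515). The share on genes over 5 kb was 25.9% ± 1.20 in older and 25.99% ± 1.126 in newer tumours (adjusted p = 0.775). The slope of a library's expression on log2 exon length was 0.0176 ± 0.0865 in older and -0.0103 ± 0.0604 in newer tumours (adjusted p = 0.481).

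The mitochondrial chromosome took 6.29%, 10.5% and 22.7% of counts in older tumours (lowest, median and highest), against 7.55%, 13.5% and 46.5% in newer tumours. The means were 12.6% ± 5.86 in older and 15.4% ± 8.92 in newer tumours (SD, n = 10 and 17; permutation test, adjusted p = 0.515), and the ranges overlapped almost throughout. The highest value, 46.5%, was newer replicate 2, which was also the largest untreated library. Without it the difference of -2.73 percentage points became -0.784. Of the 37 mitochondrial genes, all 15 of at least 100 bases were tested, and of the 22 shorter ones 3 were counted in any of the 27 tumours and 1 was tested. Of these 16 genes 14 had a negative and 2 a positive fold change, and none had an unadjusted edgeR p under 0.05. The median log2 fold change was -0.32, against 0.01 for all genes tested. With the even share as a covariate that median was 0.93 and with log2 total counts 0.66, so its sign rested on the fit. Without newer replicate 2 the median was -0.000191, so its size rested on that library. It was -0.55 without older replicate 2, -0.21 without older replicate 4 and -0.17 without older replicate 7.

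The gene with the most mitochondrial counts showed no difference that passed. ENSCAFG00000022711, which spans MT positions 1091 to 2670, took 15.1%, 37.6% and 48.5% of mitochondrial counts in older tumours (lowest, median and highest), against 23.9%, 40.7% and 65.2% in newer tumours. Its log2 fold change was -0.77 (SE 0.447, edgeR adjusted p = 0.76). As shares of mitochondrial counts, genes went both ways. ENSCAFG00000022740, of 528 bases, took 1.66% ± 0.8202 in older and 1.02% ± 0.2945 in newer tumours (SD, n = 10 and 17), and its difference in share was not tested. Genes under 100 bases took 0.086%, 0.224% and 0.503% of mitochondrial counts in older tumours, against 0.0629%, 0.138% and 0.246% in newer tumours. The means were 0.245% ± 0.133 in older and 0.149% ± 0.0581 in newer tumours (SD, n = 10 and 17; permutation test, adjusted p = 0.0336), with 8 of 10 older libraries above the newer median. Nearly all of these counts belonged to ENSCAFG00000022744, a gene of 66 bases on the minus strand at MT positions 15392 to 15457, which had 398 to 2070 counts in older and 162 to 8741 in newer libraries. ENSCAFG00000022744 had a log2 fold change of 0.23 (SE 0.485, edgeR adjusted p = 0.932), so by edgeR it did not pass either. In N-named tumours the share on genes under 100 bases was 0.249% ± 0.064 in older and 0.164% ± 0.0428 in newer ones (SD, n = 5 and 6; exact permutation test, adjusted p = 0.0779). In S-named tumours this share was 0.103% ± 0.0432 in older and 0.117% ± 0.036 in newer ones (SD, n = 5 and 8; exact permutation test, adjusted p = 0.902). With log2 total counts as a covariate the untreated difference in this share was 0.0513 percentage points (adjusted p = 0.578), and it did not pass either without older replicate 2, 4, 7, 8 or 10 (adjusted p between 0.0576 and 0.114) or newer replicate 3 or 8 (0.0522 and 0.0527).

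No single gene differed between older and newer untreated tumours by the edgeR quasi-likelihood test. Of 13900 genes tested 0 passed an adjusted p of 0.05 (0.0%), and the smallest adjusted p was 0.282. An unadjusted p under 0.05 was reached by 1001 genes (7.2%), 498 higher and 503 lower in older tumours. The median log2 fold change over all genes was 0.01, and 672 genes (4.83%) lay beyond a 2-fold difference. The SE of a gene's log2 fold change had a median of 0.336, with quartiles of 0.222 and 0.536. DESeq2, which gave 43 of the genes no adjusted p, called 22 genes (0.158%), 5 higher and 17 lower in older tumours, each of them with an edgeR p under 0.05 before adjustment. Limma voom with quality weights called 0 (0.0%, 924 genes or 6.65% at an unadjusted p under 0.05). Older and newer values overlapped in each of the 13900 genes.

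Since none passed, the 2 genes per direction with the smallest p are given, which also averaged a log2 CPM of 1 or more over the tumours and had group medians at least 0.5 apart. ENSCAFG00000009005, with 8 merged exons on the plus strand of chromosome 17 from 50633413 to 50653894 (CanFam3.1), had log2 CPM of 3.72, 5.44 and 6.66 in older tumours (lowest, median and highest), against 2.63, 4.17 and 5.60 in newer tumours. Its raw counts ran from 46 to 412 in older and from 30 to 174 in newer libraries. It was above the newer median in 9 of 10 older tumours, while 12 of 17 newer tumours lay above the lowest older one. The log2 fold change was 1.54 (SE 0.299, edgeR adjusted p = 0.282, DESeq2 adjusted p = 0.00489).

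ENSCAFG00000003370, with 29 merged exons on the plus strand of chromosome 17 from 6349621 to 6522030, had log2 CPM of 5.42, 7.27 and 8.71 in older tumours, against 4.09, 5.89 and 7.08 in newer tumours. Again 9 of 10 older tumours lay above the newer median, and 11 of 17 newer tumours lay above the lowest older one. The log2 fold change was 1.44 (SE 0.329, edgeR adjusted p = 0.324, DESeq2 adjusted p = 0.0216). In S-named tumours the same gene had log2 CPM of 5.33 ± 0.5 in older and 6.31 ± 1.38 in newer ones (SD, n = 5 and 8), the opposite direction, with a log2 fold change of -1.40 (SE 0.569, edgeR adjusted p = 0.496).

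ENSCAFG00000011164, with 24 merged exons on the plus strand of chromosome 20 from 39460216 to 39468917, had log2 CPM of 3.12, 3.90 and 4.68 in older tumours, against 4.38, 5.09 and 6.12 in newer tumours. All 10 older tumours lay below the newer median, and 5 of 17 newer tumours lay below the highest older one. The groups overlapped between 4.38 and 4.68. The log2 fold change was -1.23 (SE 0.251, edgeR adjusted p = 0.282, DESeq2 adjusted p = 0.00627). ENSCAFG00000013153, with 10 merged exons on the plus strand of chromosome 18 from 51377797 to 51381808, had log2 CPM of 2.97, 4.17 and 4.84 in older tumours, against 4.39, 4.84 and 5.32 in newer tumours. Its log2 fold change was -0.83 (SE 0.175, edgeR adjusted p = 0.282, DESeq2 adjusted p = 0.00489), and 9 of 10 older tumours lay below the newer median. None of the 4 genes overlaps another annotated gene, and the files give no function for them.

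**Figure D3:**
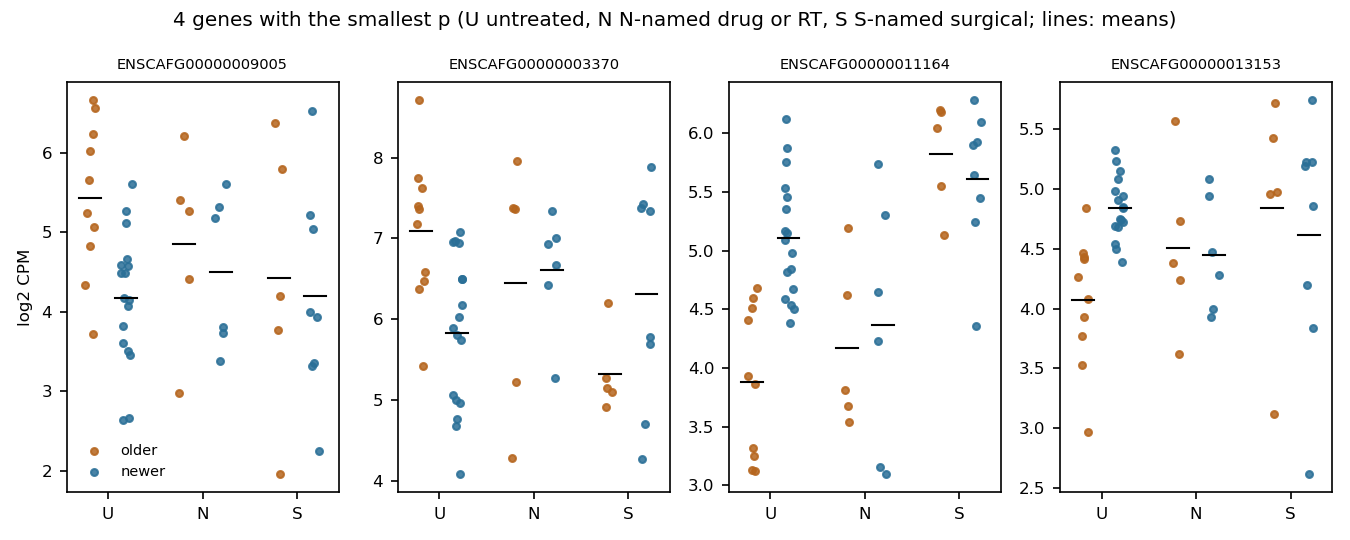
Log2 CPM of 4 genes, 1 point per library, for older and newer tumours in the untreated (U), N-named drug or RT (N) and S-named surgical (S) sets, with lines at the means. The untreated means differ while the groups overlap in every gene, and the 4 genes were picked for the smallest p in the untreated set. In the N and S sets, which had no part in that choice, the older and newer points are intermixed.

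None of the 4 genes passed in the other sets, and for these genes the difference between sets was not tested. The log2 fold changes of the 4 genes, in the order above, were 0.46, 0.26, -0.38 and 0.13 in N-named tumours and 0.36, -1.40, 0.17 and 0.20 in S-named tumours, with no adjusted edgeR p under 0.05. The N-named comparison called 0 of 14028 genes by edgeR (0.0%, 461 genes or 3.29% at an unadjusted p under 0.05) and 0 by limma voom. The S-named comparison called 0 of 13924 by edgeR (0.0%, 1263 genes or 9.07% at an unadjusted p under 0.05) and 4 by limma voom. Of the genes past an unadjusted p of 0.05 in untreated tumours, 563 of 982 measured in N-named tumours (57.3%) had the same sign there, where 49.6% of all genes did. By direction these were 304 of 488 higher and 259 of 494 lower genes. Over all genes measured in both, the fold changes correlated with r = -0.0506. In S-named tumours 500 of 979 had the same sign (51.1%), where 49.7% of all genes did. Here they were 209 of 480 higher and 291 of 499 lower genes, and r over all genes was -0.0219. Over the genes tested in untreated tumours the median log2 fold change was 0.01 in N-named and -0.04 in S-named tumours. The share of all genes with the same sign was not split by direction, so the counts by direction have no baseline beside them. No library is shared between these comparisons, and genes are not independent of each other.

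Gene classes by length showed medians near that of all genes. The median log2 fold change was -0.07 for genes spanning under 5 kb, -0.04 for 5 to 20 kb, 0.02 for 20 to 50 kb, 0.05 for 50 to 100 kb, 0.06 for 100 to 500 kb and 0.26 for 500 kb and over. The order ran from short to long span, but the mean of the longest class varied between tumours of one group with an SD of 0.767, far more than the step to it. The 0.26 fell to 0.12 without older replicate 1, 0.14 without older replicate 2, 0.13 without older replicate 8 and 0.07 without older replicate 10, and limma voom gave -0.01. In N-named tumours the longest class had a median of -0.41 and in S-named tumours 0.05. By merged exon length all medians lay between 0.00 and 0.02. Across 13884 nuclear genes Spearman's rho of the fold change was 0.0265 with exon length and 0.122 with span, as a description across genes of the same libraries. In N-named tumours the rho with span was -0.121 and in S-named tumours 0.034.

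Expression along 2 chromosomes was lower in older tumours. To score a chromosome, each of its genes was centred on its own average over the 27 tumours on the log2 CPM scale, the centred values were averaged per library, and the median over that library's autosomes was subtracted. Chromosome 20 (576 genes) scored -0.628, -0.0986 and 0.096 in older tumours (lowest, median and highest), against -0.0348, 0.0837 and 0.162 in newer tumours. Below the newer median lay 9 of 10 older tumours. The means were -0.151 ± 0.238 in older and 0.0741 ± 0.0496 in newer tumours (SD, n = 10 and 17). The difference was -0.225 (2-sided permutation test, p = 0.00012, adjusted p = 0.00234 over 39 chromosomes). Chromosome 18 (400 genes) scored -0.517, -0.097 and 0.0715 in older tumours, against -0.092, 0.0324 and 0.211 in newer tumours. Its means were -0.117 ± 0.161 in older and 0.054 ± 0.0717 in newer tumours, a difference of -0.171 (permutation test, p = 0.00011, adjusted p = 0.00234), with 9 of 10 older tumours below the newer median.

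Older scores spread more widely than newer ones on both chromosomes, and 2 older tumours lay far below the rest on chromosome 20, replicate 9 at -0.628 and replicate 7 at -0.497. These 2 tumours also had 9 and 17 autosomes in all beyond 0.3 in either direction, against at most 7 in any newer tumour. Without both, the differences were -0.122 on chromosome 20 and -0.126 on chromosome 18 (permutation test, adjusted p = 0.0178 for each), which for chromosome 20 is smaller by over 1.5 times. With the even share as a covariate they were -0.226 and -0.16 (adjusted p = 0.0643 and 0.0897), and with log2 total counts -0.202 and -0.148 (adjusted p = 0.0731 for both), so neither passed then though the size held. With ranks in place of scores, which are less open to the wide spread of the older group, both passed (adjusted p = 0.0126).

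**Figure D4:**
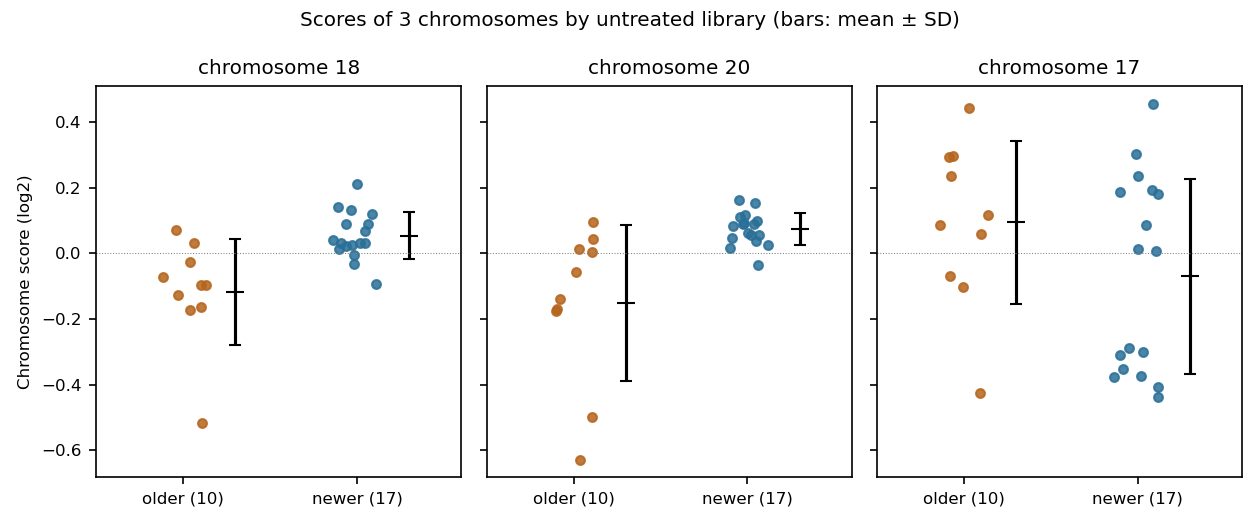
Scores of chromosomes 18, 20 and 17 (log2 scale), 1 point per untreated library, older left and newer right, with the mean ± SD beside the points. On chromosomes 18 and 20 most older points lie below the newer ones and 2 older points on chromosome 20 lie below -0.4, while on chromosome 17, 1 of 10 older and 6 of 17 newer libraries lie below -0.3.

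The lower scores were present in each part of both chromosomes that was looked at. On chromosome 20 the difference was -0.182 over the 288 genes of the first part by position and -0.268 over the 288 genes of the second, split at position 44062603. On chromosome 18 it was -0.129 and -0.213 over 200 genes each, split at 45738560. Genes spanning under 20 kb differed by -0.286 on chromosome 20 and longer ones by -0.15, and on chromosome 18 by -0.215 and -0.118. Genes with lower mean levels differed by -0.26 and -0.235 on the 2 chromosomes, and those with higher levels by -0.19 and -0.107. Both chromosomes carry compact genes, with median spans of 15225 bases on chromosome 20 and 14662 on chromosome 18, the shortest of the 39, against 26024 for all genes tested. The part of gene compactness in the result was not tested beyond these splits, in which both kinds of gene had the same direction.

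Gene by gene, 471 of 667 tested genes on chromosome 20 had a negative fold change (70.6%) and 288 of 448 on chromosome 18 (64.3%), where 49.2% of all genes did. At an unadjusted edgeR p under 0.05, chromosome 20 had 82 lower genes (12.3%) and 4 higher ones, where 3.62% of all genes were lower and 3.58% higher. Chromosome 18 had 34 lower (7.59%) and 5 higher genes. Genes of a chromosome are not independent, so these counts describe the same difference as the scores.

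Chromosome 17 went the other way without passing. Its score was -0.424, 0.102 and 0.443 in older tumours (lowest, median and highest), against -0.438, 0.00757 and 0.455 in newer tumours. The means were 0.0937 ± 0.249 in older and -0.0698 ± 0.297 in newer tumours (permutation test, adjusted p = 0.514). Scores below -0.3 were found in 1 of 10 older and 6 of 17 newer tumours, so the mean difference came with a different number of low-scoring libraries rather than a shift of all. Of 429 genes tested on it 55 were higher at an unadjusted p under 0.05 (12.8%) and 0 lower, and both of the higher genes named above lie on it. When numbers 14 and 15 were left out the difference was 0.358 (adjusted p = 0.0496).

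**Figure D5:**
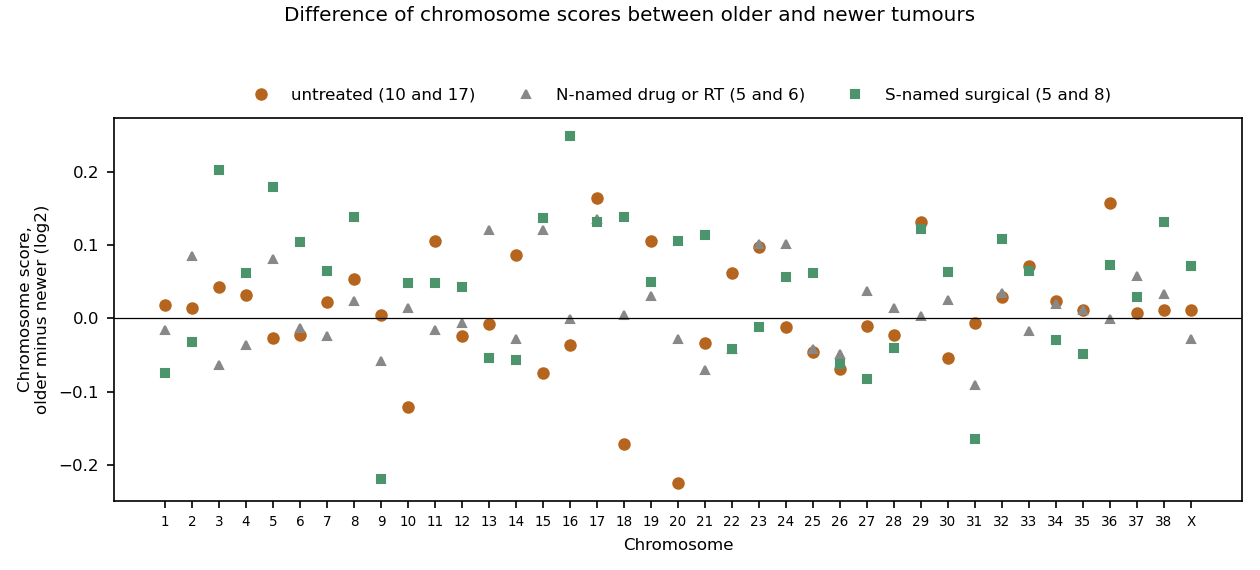
Difference of the mean chromosome score, older minus newer (log2 scale, vertical axis), for 38 autosomes and X in the untreated, N-named drug or RT, and S-named surgical sets (numbers of older and newer libraries in brackets). The untreated points of chromosomes 18 and 20 are the lowest of their set at -0.171 and -0.225, where the N-named points lie at 0.00424 and -0.0288 and the S-named points at 0.138 and 0.106.

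No difference on chromosome 18 or 20 passed in the other sets. In N-named tumours chromosome 20 scored -0.0183 ± 0.223 in older and 0.0105 ± 0.155 in newer ones (SD, n = 5 and 6; exact permutation test, adjusted p = 0.991), and chromosome 18 differed by 0.00424 (adjusted p = 0.998). In S-named tumours chromosome 20 scored 0.061 ± 0.0525 in older and -0.0448 ± 0.37 in newer ones (SD, n = 5 and 8; exact permutation test, adjusted p = 0.75), and chromosome 18 differed by 0.138 (adjusted p = 0.75). No chromosome passed in either set. The difference between the S-named and the untreated effect was 0.331 on chromosome 20 and 0.308 on chromosome 18 (permutation p = 0.0211 and 0.0082, adjusted p = 0.206 and 0.16), and between the N-named and the untreated effect 0.196 and 0.175 (adjusted p = 0.933 for both).

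Older untreated tumours also differed more among themselves. The distance of a library from the median profile of the 27 was 0.331, 0.514 and 0.774 in older tumours (lowest, median and highest, log2 units per gene), against 0.267, 0.380 and 0.532 in newer tumours. The means were 0.517 ± 0.141 in older and 0.379 ± 0.073 in newer tumours (SD, n = 10 and 17; 2-sided permutation test, p = 0.00218), and 8 of 10 older tumours lay above the newer median. With the 5334 genes of a mean log2 CPM of at least 5 the means were 0.393 ± 0.119 and 0.291 ± 0.0623 (permutation p = 0.00629), so the difference was present among well counted genes too. The median SD of a gene was 0.835 in older and 0.604 in newer tumours, and 9494 of 12067 genes (78.7%) had the larger SD in older tumours. Libraries correlated with a median Spearman rho of 0.759 over 45 older pairs, against 0.828 over 136 newer pairs and 0.795 over 170 mixed pairs. The median profile is shaped more by the larger newer group, which bears on the distances but not on the SDs. Older libraries were also smaller, and the part of depth in the wider spread was not tested beyond the well counted genes.

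In N-named tumours the distance was 0.543 ± 0.127 in older and 0.405 ± 0.176 in newer ones (SD, n = 5 and 6; exact permutation test, p = 0.175). In S-named tumours it ran the other way, 0.308 ± 0.0564 in older and 0.381 ± 0.0912 in newer ones (SD, n = 5 and 8; exact permutation test, p = 0.14). The first 4 principal components of the untreated tumours, the first of which held 27.5% of the variance, gave no difference of mean between older and newer ones (permutation test, adjusted p = 0.341 to 0.385), and on each of them the ranges overlapped.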

How the data were processed

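The authors deposited raw counts per gene for 62 libraries. Per the file headers, featureCounts 2.0.4 took primary alignments to exons of the Ensembl annotation (release 100, CanFam3.1), ignored strand and counted each read of a pair. The submitters' processing notes also name STAR, DESeq2 and canFam3, with versions not given in the sources used here. The deposited table holds no gene names, and 0 identifiers matched the name table of the assembly UU_Cfam_GSD_1.0, so the gene lists and cell type markers drawn up for this work were not analysed. The members, lists and tests were chosen with earlier results of these data known.

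Groups came from the treatment label and the number in the sample title. Replicates follow accession order and pair nothing. Among 1891 pairs of libraries the smallest chi-square per gene was 11.8, so none was a copy.

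Counts of the 27 untreated libraries were filtered (filterByExpr by period, 13900 genes), scaled by TMM and fitted with edgeR 4.0.16 quasi-likelihood models (R 4.3.3) with sex and neuter status as covariates (common dispersion 0.459). P-values were adjusted by Benjamini-Hochberg. Log2 CPM used a prior count of 2. The other sets had fits of their own without covariates. Library measures, and chromosome scores over genes averaging a log2 CPM of 2 or more, were compared by 2-sided permutation tests, exact for groups under 10 libraries and otherwise with 100000 resamples. Covariate fits of measures permuted residuals. Differences between sets used 20000 resamples. A gene was to be named for an adjusted p under 0.05, an average log2 CPM of 1 or more and medians 0.5 apart, or else for the smallest p with the other criteria. The edgeR script was tested on simulated data. DESeq2 1.42.0 and limma 3.58.1 gave alternative fits. Python 3.11.15, numpy 2.4.6, scipy 1.17.1 and pandas 2.3.3 did the rest.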

Additional observations from a re-analysis of the deposited data

Results flagged for a closer look

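Of 84 groups of 4 to 10 libraries looked at for a value far from the rest, 14 held one, and chance alone marks about 1 group in 20. In untreated tumours this was the chromosome 18 score of older replicate 9, at -0.517. The newer untreated group, with 17 libraries, was too large for this check and was not looked at. Groups of different measures hold the same libraries, so they are not independent of each other.

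In N-named newer tumours 6 of the values belonged to 1 library, steroid replicate 5. It had 12063982 counts, 46.7% of them mitochondrial, 4.30% of nuclear counts on genes under 1 kb and 34.5% on genes over 5 kb, a length slope of 0.242 and a TMM factor of 0.585. In the same group RT replicate 2 stood apart with an even share of 92.7%, above the other newer libraries. In N-named older tumours RT replicate 1 had 34.95% of nuclear counts in its top 100 genes and 20.4% on genes over 5 kb, and steroid replicate 2 had 0.136% of mitochondrial counts on genes under 100 bases.

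In S-named tumours, Sx replicate 6 of the newer group had 29.9% of nuclear counts on genes over 5 kb. SxRT replicate 2 of the older group had 2645740 counts, and SxRT replicate 1 of the older group had a log2 CPM of 6.20 for ENSCAFG00000003370. What set these libraries apart was not tested.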

How the results depend on the processing

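No paired analysis was possible because replicates were numbered in accession order and the labels give older and newer tumours no shared number. The edgeR count of called genes stayed at 0 under every scaling, filter, covariate and sample choice tried and without each of the 27 libraries in turn (range 0 to 0), with smallest adjusted p-values down to 0.0752, while DESeq2 gave 22. In S-named tumours limma voom gave 4, and leaving out 1 older library at a time gave 0 to 1, the 1 without SxRT replicate 2. The 4 named genes kept their sign in all 41 alternatives, and DESeq2 alone of these called them.

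With numbers 14 and 15 left out, total counts differed by -930354 (adjusted p = 0.133), genes detected by -1024 (0.173), genes at equal depth by -767.7 (0.241) and short mitochondrial genes by 0.101 points (0.146), none passing. By medians, genes detected differed by -966.0 (permutation test, adjusted p = 0.0727), genes at equal depth by -601.9 (0.209) and short mitochondrial genes by 0.0859 points (0.0727), none passing. Counted from at least 10 counts, genes detected differed by -668.4 (permutation test, adjusted p = 0.0595). With log2 total counts as a covariate, the even share differed by 1.66 points, genes detected by -444.5, genes at equal depth by -422.0 and short mitochondrial genes by 0.0513 points, none passing. With the even share as a covariate, total counts turned to a difference of 132996, genes detected stood at -153.9, genes at equal depth at -214.4 and short mitochondrial genes at 0.0572 points, none passing. Leaving out 1 library at a time, total counts ranged from -1265880 to -907449, genes detected from -1370 to -945.6, genes at equal depth from -1023 to -647.0 and short mitochondrial genes from 0.0676 to 0.114 points. The cause was not tested.

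Chromosomes 18 and 20 passed without each library in turn (-0.192 to -0.126 and -0.253 to -0.172) and stood at -0.16 and -0.226 with the even share and -0.148 and -0.202 with log2 total counts as a covariate, not passing. Chromosome 10 ranged from -0.167 to -0.0706, chromosome 11 from 0.0788 to 0.137 and chromosome 22 from 0.0493 to 0.0938 without 1 library, and passed without older replicate 7, older replicate 10 and newer replicate 5, in that order. Chromosome 11 (0.156) and chromosome 17 (0.358) passed without numbers 14 and 15, and chromosome 22 passed on ranks (a difference of 10.0 ranks). Class medians kept within 1 SD in 690 of 696 alternative values, where the SD was that of the class mean between libraries of one group. It was 0.864 for mitochondrial genes and 0.767 for spans of 500 kb and over. Both exceed the medians of -0.32 and 0.26, so a median could change sign and still count as kept. With no filter the class medians moved to -0.165 for exons under 1 kb, -0.25 for spans under 5 kb, -0.282 for single-exon and -0.182 for 2 to 5 exons. The mitochondrial median moved to 0.934 with the even share and 0.656 with log2 total counts as a covariate. The part of depth in the medians that moved with no filter was not tested.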
